A study of Mus musculus with 6 samples.

Results

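The genes that bring fatty acids into the heart muscle cell and prepare them for use were examined in the hearts of mice fed a normal diet (ND) or a high fat diet (HFD). The 10 genes were Lpl, Gpihbp1, Angptl4, Vldlr, Cd36, Slc27a1, Slc27a6, Fabp3, Acsl1 and Acsl3. Every array probe that carried exactly one of these gene names, other than control probes, was taken, which gave 14 of the 55681 probes. Of these, 13 probes of 9 genes were bright enough to be tested, among 27587 tested probes. The remaining probe, for Slc27a6, was not above background in any heart.

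Male C57BL/6 mice were started at age 4 weeks on standard chow (ND) or on a diet with 60% of its calories from fat (HFD), and hearts were taken after 4 months. The study asked how cardiac gene expression differed between the diets. Total RNA of 3 ND and 3 HFD hearts was measured on 6 single-colour Agilent mouse arrays, 1 array per heart. The labels name heart tissue without saying which piece was used, and they name no transgene.

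The heart draws most of its energy from fatty acids, which reach it as triglyceride in lipoproteins and as free fatty acid on albumin. Lipoprotein lipase, held on the capillary wall by GPIHBP1, releases fatty acids from triglyceride, and CD36 and the fatty acid transport proteins help them into the myocyte. Inside the cell FABP3 carries them and long-chain acyl-CoA synthetases join them to coenzyme A, the step that commits them to oxidation or storage.

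Probe levels are log2 intensities after subtraction of the array's own 75th percentile, so a level of 0 is a probe at that percentile. Levels of different probes were not read as differences in RNA amount, because probes differ in how well they bind. Such levels served only to choose the brightest tested probe of a gene and to call a probe dim. A log2 fold change is the HFD mean minus the ND mean. Each probe is a DNA strand of 60 bases, and positions are those of the mm9 build. The 6 arrays had a 75th percentile of 453 to 544 intensity units, 49.2% to 52.9% of probes well above background and 0 saturated spots. The number of arrays limits the precision.

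The probes that carry the results are printed here 5′ to 3′, because the readout of a gene is that of the bases its probe holds. For Lpl and Acsl1, the only genes among these with a pair of probes at separate places and a difference at an unadjusted p below 0.05, one probe is given whole, and the first 30 bases of the other are given. The Slc27a1 probe is shown by its first 30 bases. The Fabp3 probes start 9 bases apart and share 51 bases, and the capitals mark shared bases within the first 30 of each.
Lpl A_52_P257812: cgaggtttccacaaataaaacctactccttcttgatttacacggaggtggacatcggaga
Lpl A_51_P259296: gaacaccaacccacatgcaaaaccccacaa
Acsl1 A_51_P463452: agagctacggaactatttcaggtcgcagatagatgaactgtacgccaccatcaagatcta
Acsl1 A_51_P496432: gcctaacttcatactcgtattcttaattgc
Slc27a1 A_51_P117477: ggtacccacctccctttcctattgtgcctt
Fabp3 A_55_P1974367: tttatttttTAAAACTGTATCCAAAGGGTG
Fabp3 A_55_P2033780: TAAAACTGTATCCAAAGGGTGCTCCAAGGT

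Across the 13 tested probes, Slc27a1 and 1 of the Acsl1 probes were higher in HFD-fed hearts, and 1 of the Lpl probes was lower, at an unadjusted limma p below 0.05. That is 2 probes higher, where 5.23% of all probes tested were higher by this limit, and 1 lower, where 6.64% were lower. None passed the Benjamini-Hochberg limit of 0.05 over all probes in limma, which 4 of the 27587 probes did (0.0145%), and the smallest adjusted p of these genes was 0.144. The methods' t-test gave 2 higher (4.45% of all probes) and 1 lower (6.95%) before adjustment and 0 after it (0.029%). With an intensity trend and robust variances, limma passed 1 probe, that of Slc27a1 (adjusted p = 0.0485), among 0.294% of all probes. The HFD means ran from 78.6% of the ND mean, for a probe of Lpl, to 1.43 times it, for Slc27a1. No probe of these genes was 1.5-fold or more higher in HFD, where 2.25% of all probes tested were. For 13 probes a count of 0 is near that share.

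The individual hearts gave a similar picture. The 3 HFD hearts lay above all 3 ND hearts in 4 of the 13 probes, against 7.92% of all probes tested, and below them in 2, against 11.1%. With 3 hearts in each group the smallest two-sided p of an exact permutation test is 0.1, so this test cannot pass 0.05 for any single probe. The median log2 fold change of the 9 genes, taking the brightest tested probe of each, was 0.021, beside -0.0081 for all probes tested. For Lpl and Acsl1 the brightest probe was the one that did not pass the unadjusted limit.

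**Figure D1:**
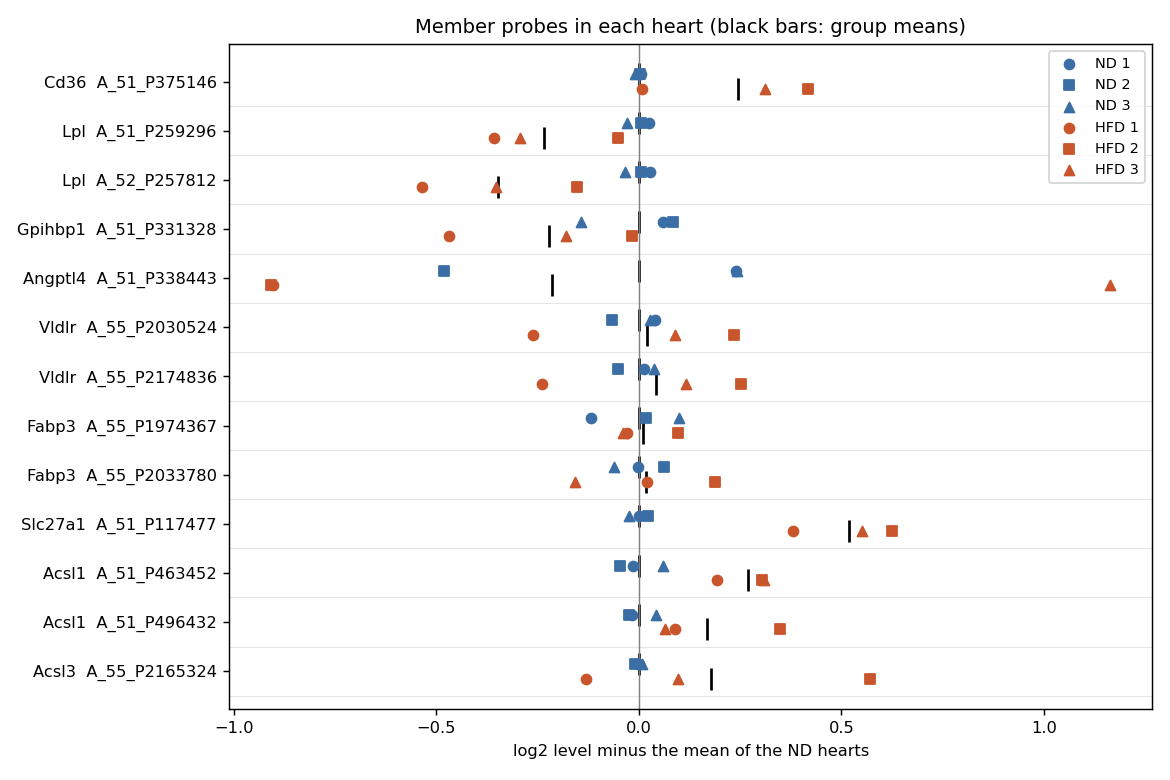
Level of each of the 13 tested probes in each heart, as log2 level minus the mean of the 3 ND hearts (blue symbols ND, orange symbols HFD, black bars the group means). Slc27a1 and both Acsl1 probes have all 3 HFD hearts on the right of the ND hearts, both Lpl probes have them on the left, and HFD 1 in Cd36 sits on the ND values.

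Lpl encodes lipoprotein lipase, the enzyme that releases fatty acids from circulating triglyceride, and in the heart it is made mainly by the myocytes. Its levels were lower in HFD-fed hearts on both probes. At A_52_P257812 (chr8:71425050-71425109, plus strand) the ND hearts 1 to 3 had levels of 7.05, 7.03 and 6.99, and the HFD hearts 1 to 3 had 6.49, 6.87 and 6.67. The groups did not overlap, and HFD 1 was the lowest heart. The mean was 7.03 ± 0.031 in ND and 6.68 ± 0.192 in HFD (SD, n = 3 each), and HFD stood at 78.6% of ND. On this probe the log2 fold change was -0.35 (SE 0.11, 95% interval -0.61 to -0.08, unadjusted p = 0.0188, adjusted p = 0.324).

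The second Lpl probe, A_51_P259296 (chr8:71430267-71430326, plus strand), starts 5217 bases further along the chromosome and shares no base with the first. Here the ND hearts read 8.68, 8.65 and 8.62, against 8.29, 8.60 and 8.36 in the HFD hearts. The groups again did not overlap, but the highest HFD heart, HFD 2, lay only 0.0211 log2 units below the lowest ND heart. This gave a log2 fold change of -0.23 (SE 0.10, 95% interval -0.47 to 0.004, unadjusted p = 0.0529, adjusted p = 0.428). Averaged over both probes before the fit, Lpl had a log2 fold change of -0.29 (SE 0.10, unadjusted p = 0.0286, adjusted p = 0.352). The order of the 6 hearts was the same on both probes, from HFD 1 through HFD 3 and HFD 2 to ND 3, ND 2 and ND 1.

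Whether the Lpl difference passed the unadjusted limit depended on single hearts. Without ND 1 the unadjusted p of A_52_P257812 was 0.057, without ND 2 it was 0.0507, without HFD 3 it was 0.051 and with slide row in the fit it was 0.0907. The log2 fold change itself ran from -0.44 to -0.25 over 17 alternative settings.

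Gpihbp1 encodes the anchor of endothelial cells that binds lipoprotein lipase and carries it to the capillary lumen. Its probe A_51_P331328 (chr15:75428484-75428543) read 6.11, 6.14 and 5.91 in the ND hearts and 5.58, 6.04 and 5.87 in the HFD hearts. HFD 1 was the lowest, but HFD 2 lay above ND 3, so the groups overlapped. A log2 fold change of -0.22 (SE 0.14, 95% interval -0.56 to 0.11, unadjusted p = 0.156, adjusted p = 0.589) did not pass the test. As in any RNA from whole tissue, fewer cells of a type and less RNA per cell cannot be told apart.

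Because the enzyme and its anchor meet at the capillary, markers of endothelial cells were read beside them. The mean log2 level of 12 endothelial markers was 2.54 to 2.61 in the ND hearts and 2.52 to 2.68 in the HFD hearts, overlapping, with 2 of 12 (Kdr and Egfl7) lower at an unadjusted p below 0.05 and 0 higher, against 6.64% and 5.23% of all probes tested. HFD 1, lowest for Lpl and Gpihbp1, was lowest on this list as well, at 2.52, and HFD 2 was highest, at 2.68. The 10 cardiomyocyte markers had 0 members past that limit and means of 8.36 to 8.39 in ND and 8.19 to 8.44 in HFD hearts. The part of these cell types in the Lpl and Gpihbp1 levels was not tested.

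Angptl4 encodes a secreted inhibitor of lipoprotein lipase and is a well-known target of the fatty acid sensing PPAR receptors. Its probe A_51_P338443 (chr17:33911880-33911939, minus strand) was the most variable of the 13. The ND hearts 1 to 3 had background-subtracted intensities of 5523, 3317 and 5398 units, and the HFD hearts had 2640, 2316 and 11665. The log2 levels of the ND hearts were thus 3.50, 2.78 and 3.50, against 2.36, 2.35 and 4.42 on the high fat diet. Both HFD 1 and HFD 2 were below every ND heart and HFD 3 was above every ND heart. The resulting log2 fold change of -0.22 had an SE of 0.60 and a 95% interval from -1.68 to 1.25 (unadjusted p = 0.731, adjusted p = 0.921), which leaves its direction unknown.

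The sign of the Angptl4 value depended on HFD 1 and HFD 2. Without either of them the log2 fold change was 0.13, and without HFD 3 it was -0.91. HFD 3 was also the only HFD heart in the same row of the slide as the ND hearts, and against those 3 hearts alone it was higher by 1.16 log2 units.

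Vldlr encodes the very low density lipoprotein receptor, which binds triglyceride-rich particles at the endothelium. The probe A_55_P2030524 (chr19:27324050-27324109) had levels of 6.34, 6.23 and 6.33 in ND and 6.04, 6.53 and 6.39 in HFD. The probe A_55_P2174836 (chr19:27321104-27321163), 2946 bases away, had 3.75, 3.69 and 3.78 in ND and 3.50, 3.99 and 3.86 in HFD. On both probes HFD 1 was the lowest of the 6 hearts and HFD 2 the highest, with the ND hearts between them. Their log2 fold changes were 0.021 (SE 0.14, 95% interval -0.31 to 0.35) and 0.043 (SE 0.13, 95% interval -0.29 to 0.37), with unadjusted limma p of 0.884 and 0.760. Vldlr values on either side of 0 lie within both intervals.

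Cd36 encodes the main facilitator of long-chain fatty acid uptake in heart muscle, a membrane protein found on endothelial cells too. Its probe A_51_P375146 (chr5:17288600-17288659, minus strand) had levels of 5.99, 5.99 and 5.98 in the ND hearts and 5.99, 6.40 and 6.30 in the HFD hearts. HFD 2 and HFD 3 stood clearly above the ND hearts, while HFD 1 was level with them, higher than the top ND heart by only 9.2e-05 log2 units. The mean was 5.98 ± 0.0077 in ND and 6.23 ± 0.213 in HFD (SD, n = 3 each), a ratio of 1.19. The log2 fold change of 0.25 (SE 0.12, 95% interval -0.04 to 0.53, unadjusted p = 0.0801, adjusted p = 0.481) did not pass the test. It ran from 0.16 without HFD 2 to 0.36 without HFD 1. The unadjusted p was below 0.05 in 5 of 17 alternative settings. Among these were limma after quantile normalization (0.0259) and limma on the authors' own log2 table (0.0220). The lowest adjusted p of the 17 was 0.243.

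Slc27a1 encodes fatty acid transport protein 1, a membrane protein that both aids uptake and has acyl-CoA synthetase activity. It had the largest relative difference and the smallest p of the 13 probes. Its probe A_51_P117477 (chr8:74110256-74110315, plus strand) gave intensities of 3437, 3451 and 3297 units in the ND hearts and 4715, 4914 and 5598 in the HFD hearts. As levels, the ND hearts had 2.81, 2.84 and 2.79, against 3.19, 3.44 and 3.36 on the high fat diet. Every HFD heart was higher than every ND heart, and the gap between the groups, 0.356 log2 units, was wider than the range within either diet, which was 0.0475 in ND and 0.245 in HFD.

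The Slc27a1 mean was 2.81 ± 0.0238 in ND and 3.33 ± 0.126 in HFD (SD, n = 3 each), a ratio of 1.43. In limma the log2 fold change was 0.52 (SE 0.08, 95% interval 0.31 to 0.72, unadjusted p = 0.000836, adjusted p = 0.144). By p the probe ranked 159th of all probes tested, and by the size of the log2 fold change it ranked 829th among those higher in HFD. Its log2 fold change stayed between 0.47 and 0.59 over 17 alternative settings, with an unadjusted p below 0.05 in all 17. Over these settings, which reuse the same hearts, the adjusted limma p ran from 0.0485 with an intensity trend and robust variances to 0.536 with no filter on dim probes. The gene has 1 probe on the array, so no second probe could be set beside it.

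Slc27a6 encodes fatty acid transport protein 6, known from human heart. Its probe A_55_P2039379 was well above background on 0 of the 6 arrays. The background-subtracted intensities were 4.23, 3.84 and 10.99 in the ND hearts and 3.66, 3.92 and 3.89 in the HFD hearts. All were under the dimmest probe called well above background on the same array, which had an intensity of 15.6 to 21.1. No fold change is given for this gene, and the readout does not say whether a small amount of its RNA was present.

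Fabp3 encodes the heart fatty acid binding protein, an abundant carrier in the myocyte cytosol. Its probe A_55_P1974367 (chr4:129992643-129992702) had levels of 8.24, 8.38 and 8.46 in ND and 8.33, 8.46 and 8.32 in HFD. The probe A_55_P2033780 (chr4:129992652-129992711) had 8.36, 8.43 and 8.30 in ND and 8.39, 8.55 and 8.21 in HFD. The groups overlapped on both, and since the sequences share 51 of 60 bases, as printed above, they are not independent readings. Log2 fold changes of 0.0095 (SE 0.09, 95% interval -0.20 to 0.22) and 0.018 (SE 0.10, 95% interval -0.24 to 0.27) were found, with unadjusted limma p of 0.916 and 0.872. Both intervals hold Fabp3 values on either side of 0.

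Acsl1 encodes the main long-chain acyl-CoA synthetase of the heart. Its levels were higher in HFD-fed hearts on both probes, and the groups did not overlap on either. At A_51_P463452 (chr8:47619774-47619833, plus strand) the ND hearts had levels of 4.00, 3.97 and 4.07 and the HFD hearts 4.21, 4.32 and 4.32. All 3 HFD hearts were close to each other, with a gap of 0.132 log2 units to the highest ND heart. The mean was 4.01 ± 0.0544 in ND and 4.28 ± 0.0659 in HFD (SD, n = 3 each), a ratio of 1.20. The log2 fold change was 0.27 (SE 0.07, 95% interval 0.09 to 0.44, unadjusted p = 0.00934, adjusted p = 0.274).

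The second Acsl1 probe, A_51_P496432 (chr8:47621232-47621291, plus strand), starts 1458 bases further along. The ND hearts read 7.42, 7.41 and 7.48, against 7.53, 7.78 and 7.50 in the HFD hearts. HFD 2 stood apart at the top, and HFD 3 exceeded the highest ND heart by 0.0221 log2 units. Its log2 fold change of 0.17 (SE 0.10, 95% interval -0.07 to 0.40, unadjusted p = 0.132, adjusted p = 0.562) did not pass the test. With both probes averaged before the fit, the Acsl1 log2 fold change was 0.22 (SE 0.08, unadjusted p = 0.0284, adjusted p = 0.351). Over the alternative settings, A_51_P463452 ran from 0.25 to 0.31 with an unadjusted p below 0.05 in 17 of 17, and A_51_P496432 from 0.06 to 0.24 with such a p in 2 of 17.

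Acsl3 encodes an acyl-CoA synthetase of the endoplasmic reticulum and lipid droplets. Its probe A_55_P2165324 (chr1:78703500-78703559) was dim, with intensities of 102 to 146 units, but well above background in every heart. The ND hearts had levels of -2.21, -2.22 and -2.20, against -2.34, -1.64 and -2.11 in the HFD hearts. The 3 ND hearts nearly coincided, and the HFD hearts fell on both sides of them. The log2 fold change of 0.18 (SE 0.18, 95% interval -0.26 to 0.62, unadjusted p = 0.356, adjusted p = 0.745) turned to -0.018 without HFD 2.

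**Figure D2:**
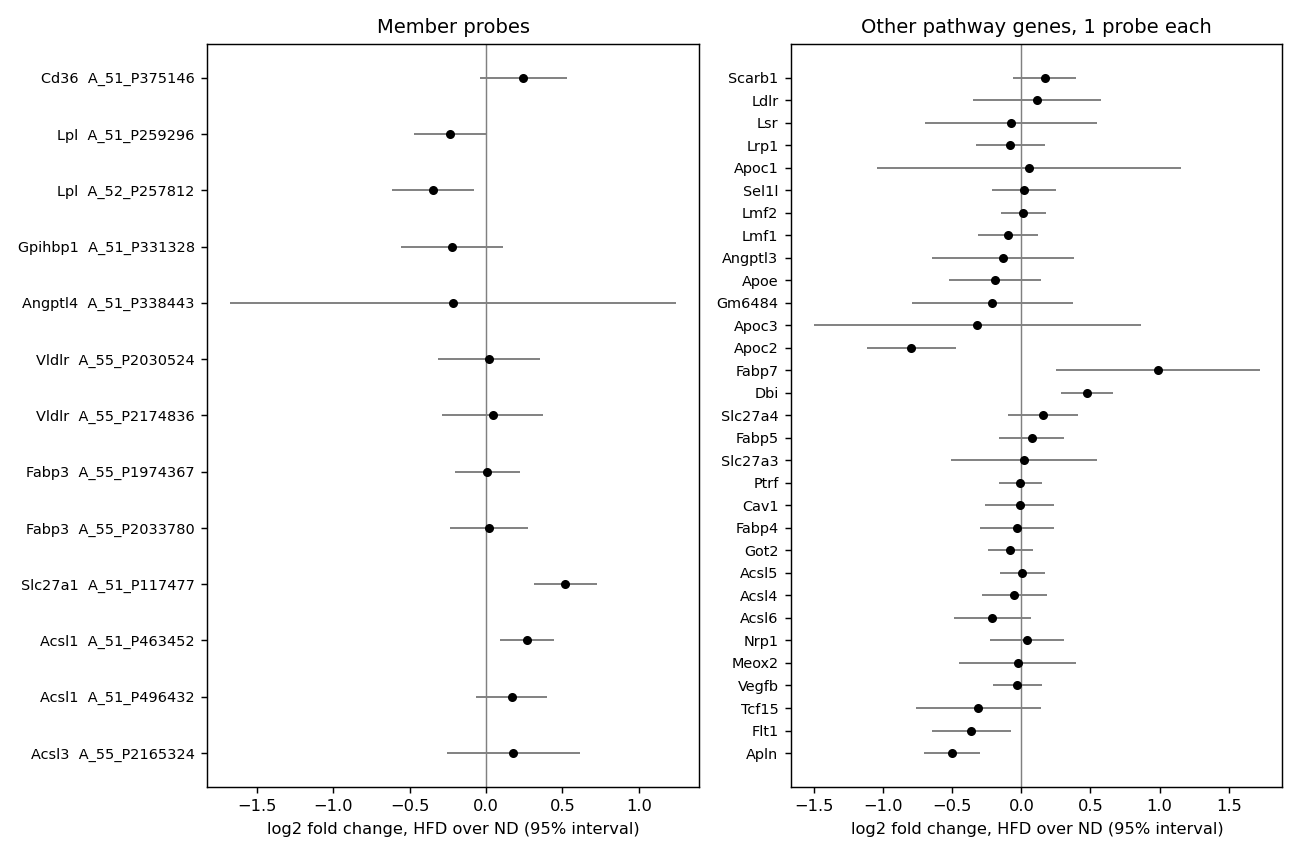
Log2 fold change of HFD over ND with its 95% interval from limma, for the 13 tested probes (left) and for 31 other genes of the pathway with 1 probe each (right). The intervals of Slc27a1, Acsl1 A_51_P463452 and Lpl A_52_P257812 lie clear of 0 on the left, and those of Dbi, Fabp7, Apoc2, Apln and Flt1 on the right.

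The probes of these genes varied more between HFD hearts than between ND hearts. The SD was larger in HFD for 12 of the 13 probes, against 61.9% of all probes tested. The median SD of the 13 probes was 0.0461 log2 units in ND and 0.192 in HFD, beside 0.108 and 0.138 for all probes. Cd36, at 27.6 times, and Acsl3, at 42.5 times, had the largest ratios of HFD to ND spread, both with ND hearts that nearly coincided. The exception was the Fabp3 probe A_55_P1974367, with a ratio of 0.692. No test of variance was made, since 3 hearts give little information on a spread.

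**Figure D3:**
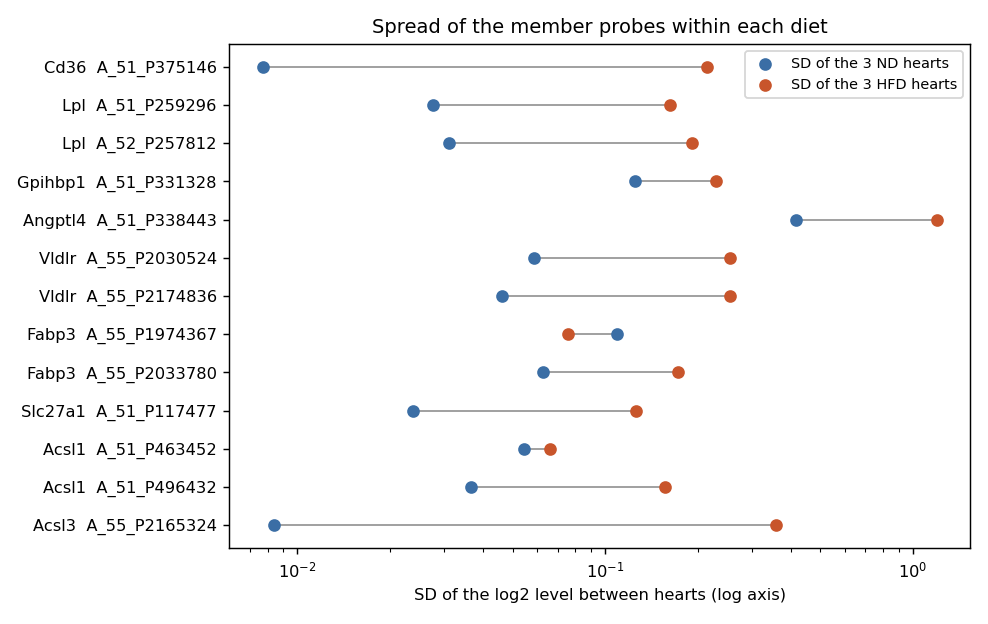
SD of the log2 level between the 3 ND hearts (blue) and between the 3 HFD hearts (orange) for the 13 tested probes, on a log axis. The orange point is on the right of the blue one in 12 of 13 probes, the exception being Fabp3 A_55_P1974367.

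The order of the HFD hearts recurred across the genes. HFD 1 lay below HFD 2 in 12 of the 13 probes, against 63.7% of all probes tested. HFD 2 was the highest of the 6 hearts in 7 probes (27.3% of all probes), and HFD 1 was the lowest in 6 (26.8%) and the highest in 0. In 8 probes of 6 genes the HFD hearts stood in the order HFD 1, HFD 3, HFD 2 from low to high, as 29.7% of all probes did. Probes of one heart share an array, so these counts describe 3 hearts and not 13 separate observations.

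Other marker lists also set these hearts apart. HFD 2 had the lowest mean level of 7 adipocyte markers, -3.36 against 0.11 in HFD 1, and the ND hearts lay between, at -1.26 to -0.52. It also had the lowest mean of 5 atrial muscle markers, 0.92 against 4.18 to 7.31 in the other hearts. Lep of the adipocyte list and Bmp10 of the atrial list were not above background in enough hearts to be tested. At the unadjusted limit 5.23% of all probes tested were higher and 6.64% lower. Between the diets, 8 macrophage markers averaged 1.28 to 1.37 in ND and 1.21 to 1.28 in HFD, with 0 past that limit. The 6 red blood cell markers averaged 2.94 to 3.70 and 2.11 to 2.54, with 5 of 6 lower. Of 7 skeletal muscle markers, Actn3, Myh1, Myh2 and Myh4 were not above background in enough hearts to be tested. The 3 tested, Acta1, Tnni2 and Tnnt3, averaged 1.58 to 1.83 and 0.94 to 1.38, with 2 of them, Acta1 and Tnni2, lower. With the other markers of this list untested, these readings do not show whether skeletal muscle was present. Which muscle the Acta1 RNA came from was not tested. HFD 1 and HFD 2 shared row 1 of the slide, while HFD 3 and the 3 ND hearts lay in row 2. The part of tissue makeup and of slide row in the levels above was not tested. Against the 3 ND hearts of its own row, HFD 3 had differences of 0.55 for Slc27a1, 0.31 for Cd36, 0.31 and 0.06 for Acsl1, and -0.35 and -0.29 for Lpl. These signs could not differ from those over all hearts, because the groups did not overlap on these probes. Where the groups overlapped, the sign was the same for Gpihbp1, at -0.18, Vldlr, at 0.089 and 0.12, and Acsl3, at 0.096. It was the opposite for Angptl4, at 1.16, and for Fabp3, at -0.039 and -0.16.

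The other genes of the pathway, 38 in all, were read with the brightest tested probe of each. Of these, 31 were tested, 2 were higher and 3 lower in HFD-fed hearts at an unadjusted limma p below 0.05, where 5.23% of all probes tested were higher and 6.64% lower, and 0 passed the adjusted limit. The median log2 fold change of the 31 was -0.03, and 12 lay above 0. Partners of lipolysis, such as apolipoproteins and lipase maturation factors, had 9 of 11 tested and 1 lower. Lipoprotein receptors had 4 of 5 tested and 0 past the limit, and the remaining acyl-CoA synthetases had 3 of 5 and 0. Uptake and binding proteins had 9 of 11 tested and 2 higher, and endothelial signals for fat transport had 6 of 6 tested and 2 lower.

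Dbi encodes the acyl-CoA binding protein, which carries the product of the synthetases, and Fabp7 encodes a fatty acid binding protein best known from brain. The Dbi probe A_55_P2116924 read 6.78, 6.80 and 6.71 in the ND hearts and 7.22, 7.34 and 7.16 in the HFD hearts, without overlap. Its log2 fold change was 0.48 (SE 0.08, unadjusted p = 0.000798, adjusted p = 0.140), and the overlapping probe A_55_P2049979 gave 0.50 (SE 0.08). Fabp7 had levels of -3.45, -3.04 and -2.45 in ND and -1.71, -2.41 and -1.85 in HFD, dim but well above background in every heart. The Fabp7 log2 fold change was 0.99 (SE 0.30, unadjusted p = 0.0166, adjusted p = 0.317). Its HFD hearts lay above the ND hearts, by little between HFD 2 and ND 3.

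Apoc2 encodes the cofactor that lipoprotein lipase needs for activity. Its probe had levels of -2.54, -2.45 and -2.34 in the ND hearts and -3.42, -2.98 and -3.31 in the HFD hearts. It was dim, but well above background in every heart, and the log2 fold change was -0.80 (SE 0.13, unadjusted p = 0.000904, adjusted p = 0.145). The dimmest probe called well above background on an array had a level of -5.06 to -4.50. Apln encodes apelin, an endothelial peptide that limits the passage of fatty acids through the vessel wall. It had levels of 1.99, 1.94 and 1.80 in ND and 1.47, 1.42 and 1.33 in HFD, with a log2 fold change of -0.50 (SE 0.08, unadjusted p = 0.000855, adjusted p = 0.144). Flt1 encodes a receptor for VEGF-B, a signal tied to endothelial fatty acid transport. On its tested probe the ND hearts read 5.63, 5.59 and 5.40, against 5.05, 5.38 and 5.11 in the HFD hearts. The log2 fold change was -0.36 (SE 0.12, unadjusted p = 0.0214, adjusted p = 0.335). Another Flt1 probe, A_52_P405145, was well above background in 0 ND hearts and 1 HFD heart and was not tested. Its mean levels were -6.74 in ND and -5.06 in HFD, the other direction. On the tested probes of Apoc2, Apln and Flt1 every HFD heart was lower than every ND heart, by only a small gap in Flt1.

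**Figure D4:**
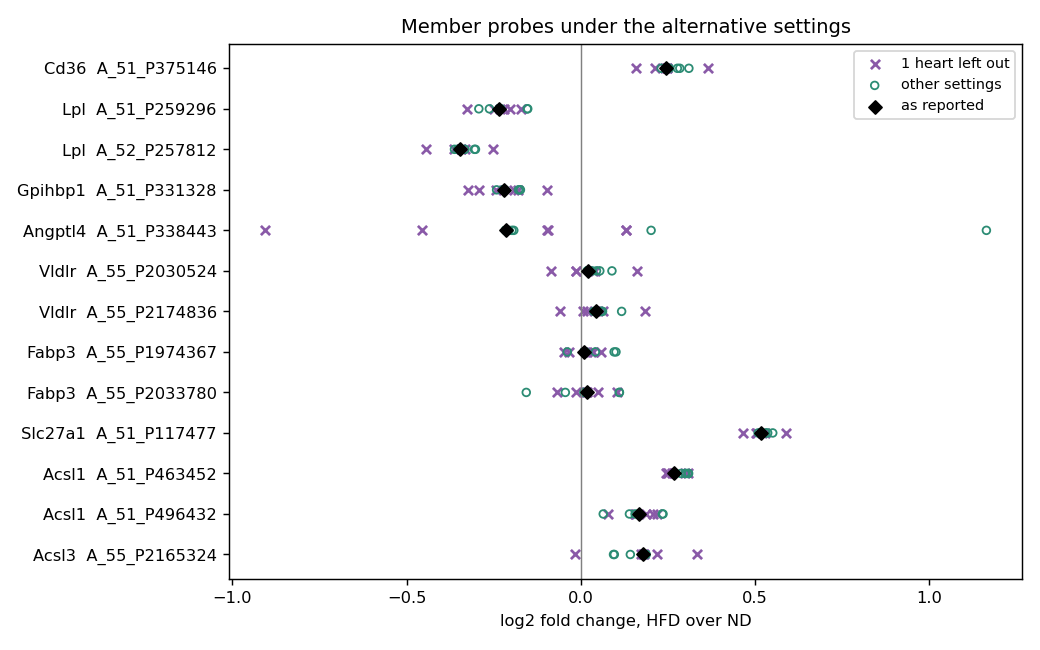
Log2 fold change of HFD over ND of the 13 tested probes as reported (black diamonds), with 1 heart left out (purple crosses) and under the other alternative settings (green circles). Slc27a1, both Acsl1 probes and Cd36 stay above 0 and both Lpl probes and Gpihbp1 stay below it, while Angptl4 runs from -0.91 to 1.16. For Slc27a1, Acsl1, Cd36 and Lpl the diets did not overlap, so leaving out a heart or adding slide row could not turn the sign.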

How the data were processed

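Total RNA from 3 ND and 3 HFD hearts was labelled with Cy3 and hybridized to Agilent mouse arrays. The authors deposited scanner intensities on a linear scale, background-subtracted by Agilent Feature Extraction 10.7.1.1 and not normalized between arrays. The authors also deposited a log2 table of the same arrays, whose columns had a Spearman's rho of 1 with their own array. It was used as an alternative. The methods name no normalization.

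Controls and outlier-flagged spots (127 to 190 an array) were dropped, repeat spots of a probe were averaged, and log2 intensities were centred on each array's 75th percentile. Probes well above background on all arrays of at least 1 diet, and measured on at least 2 arrays per diet, were tested by limma 3.58.1 (R 4.3.3), two-sided, with Benjamini-Hochberg adjustment over 27587 probes. Intervals are at 95%. Single probes were also given a two-sided exact permutation test. The labels number the replicates, and the methods name 3 hearts in each group. The p-values set a difference of means against the spread between hearts, which limma estimates with help from all probes. The script was tested on simulated data with changes of 1 or 2 log2 units. The adjusted limit called 59 of 100 changes of 1 unit and 86 of 100 of 2 units. Smaller changes were not simulated, and the largest log2 fold change of the 13 probes was 0.52.

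Every probe of the 10 genes was reported. Of the other pathway genes, those with an unadjusted p below 0.05 were named. The genes and lists were chosen with earlier results of these data known. Probe positions and sequences came from the deposited files on mm9. The exon each probe lies in was not computed here. The 18 alternatives covered background, normalization, filters, test, weights, slide row, replicate block and leaving out each heart.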

Additional observations from a re-analysis of the deposited data

How the results depend on the processing

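With intensity trend and robust variances, 1 probe passed the adjusted limit in place of 0. The probes higher at an unadjusted p below 0.05 numbered 4 after quantile normalization (5.68% of all probes) and with the authors' table (5.81%), against 2 as reported (5.23%). The lower ones numbered 2, against 1, with normexp (7.2% of all probes), the filter on all 6 arrays (7.04%), trend and robust variances (7.55%) and array weights (8.54%), 0 with slide row (4.68%), against 6.64% as reported, and 0 (without ND 1, 4.2%, or ND 2, 4.15%) to 2 (without HFD 2, 7.26%) with 1 heart left out. Probes without overlap numbered 3, against 6, with normexp (17.8% of all probes, against 19%), and 6 to 9 (without HFD 1, 31.4% of all probes) with 1 heart left out, where 25.5% to 33.2% of all probes did not overlap. The other pathway genes past the unadjusted limit numbered 3, against 5, with slide row (7.74% of all probes, against 11.9%), and 3 (without HFD 3, 10.4%) to 8 (without HFD 2, 12.6%) with 1 heart left out. The median log2 fold change of the genes ran from -0.018 (without HFD 2) to 0.16 (without HFD 1), and with other settings it kept its sign.

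Single probes kept their sign and side of the adjusted limit in 204 refits, turned the sign in 16 and passed the limit in 1. Leaving out a heart or adding slide row could not turn the sign of the 6 probes whose diets did not overlap. Angptl4 turned to 0.20 with array weights and 1.16 with slide row (unadjusted p = 0.0147, adjusted p = 0.505), and without 1 heart it ran from -0.91 (HFD 3) to 0.13 (HFD 1 or HFD 2). Fabp3 A_55_P2033780 turned to -0.044 with array weights and -0.16 with slide row, and ran from -0.068 (without HFD 2) to 0.10 (without HFD 3). Fabp3 A_55_P1974367 turned to -0.039 with slide row, and ran from -0.049 (without ND 1) to 0.059 (without ND 3). Without HFD 2 and without HFD 1, in that order, Vldlr A_55_P2030524 gave -0.086 and 0.16, Vldlr A_55_P2174836 gave -0.061 and 0.18, and Acsl3 gave -0.018 and 0.33, the lowest and highest without 1 heart. The cause was not tested. Fits without 1 heart leave a diet with 2 hearts, and slide row leaves the comparison to HFD 3.

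The labels do not say whether hearts with the same replicate number share more than the number. Their deviations correlated at -0.154, 0.147 and 0.190, and those of hearts with unlike numbers at -0.302 to 0.190. With 3 hearts per diet these values cannot decide whether the hearts were paired. With the replicate as a block, 0 probes passed the adjusted limit (0% of all probes). Before adjustment 2 were higher (5.06% of all probes) and 1 lower (5.89%), and 6 did not overlap (19%). Of the other pathway genes 5 passed the unadjusted limit (10.9% of all probes), and the median was 0.021. The counts by p were the same without the block. The median and the count without overlap could not change, because every replicate number occurs in both diets and the block leaves each log2 fold change as it was. Only the p-values could move. For Slc27a1, at 0.52, limma with the block gave an unadjusted p = 0.00378 and an adjusted p = 0.293.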
